A study of Mus musculus with 12 samples.

Results

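The inflammasome and interleukin-1 family was followed in cortical microglia as a set of 9 genes given by name: *Nlrp3*, *Pycard*, *Casp1*, *Casp4*, *Gsdmd*, *Il18*, *Il1a*, *Il1b* and *Il1rn*. All 9 were found among the 55487 genes of the count table, and all 9 were among the 15425 genes that passed the filter on low counts, so each was tested in every comparison. RNA was sequenced from CD11b-positive cells of the cerebral cortex, isolated with antibody-coated magnetic beads after warm papain digestion, from 12 male mice in 4 groups of 3. WT mice were C57BL/6J, the background strain of the AppNL-G-F mice, in which the endogenous *App* gene is humanized in its Aβ sequence and carries the Swedish, Iberian and Arctic mutations under its own promoter in every cell that uses it. Mice of each strain received 24 intravenous injections over 12 weeks, from 9 months of age, of either PBS (veh) or 10 mg/kg rh Bri2 BRICHOS R221E, a recombinant human chaperone domain with a single changed residue, and all were left untreated for another 4 weeks before the brain was taken. The 4 groups are thus veh-treated WT, BRICHOS-treated WT, veh-treated AppNL-G-F and BRICHOS-treated AppNL-G-F mice, and all of them shared the injections, the perfusion and the cell isolation.

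An inflammasome is a protein platform that assembles in the cytosol of myeloid cells when a sensor such as NLRP3 meets danger signals. The sensor recruits the adaptor ASC, encoded by *Pycard*, which brings pro-caspase-1 molecules together. Active caspase-1 cuts the precursors of IL-1β and IL-18 and opens the pore former gasdermin D, and caspase-11, encoded by *Casp4* in the mouse, cuts gasdermin D after it senses bacterial lipopolysaccharide. IL-1α and IL-1β bind the same receptor, and the receptor antagonist encoded by *Il1rn* occupies that receptor without signalling. Aggregated Aβ is a known trigger of NLRP3 in microglia, and transcription of *Nlrp3* and *Il1b* is the priming step that precedes assembly. The values below are mRNA levels, and the cutting of the proteins was not measured.

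Library totals ran from 12433402 to 17889654 counts. Levels are given as CPM, a count scaled to a common library size by the library total and a TMM factor. These factors were 1.045 to 1.104 in WT and 0.874 to 0.952 in AppNL-G-F libraries. Small strain differences, such as those of *Pycard*, *Casp1* and *Gsdmd*, therefore depend in part on this scaling, and a fit without it was not run. A floor of 3 counts was 0.168 to 0.241 CPM by library totals alone, without the factor. The lowest count of any of the 9 genes in any library was 82, for *Il1rn*. In bulk RNA, fewer cells of a type and less RNA per cell cannot be told apart. The 10 microglial marker genes together reached 27466 to 31835 CPM in WT and 26018 to 29134 CPM in AppNL-G-F libraries, and none of them was at 0 in any group. Of these 10, 7 passed as lower and 2 as higher between the veh-treated strains, and 6 and 2 between the BRICHOS-treated strains. Markers of other cells were present as well, at 4154 to 16932 summed CPM for 7 oligodendrocyte genes in the WT libraries, and several of their mean sums differed between the strains. The AppNL-G-F mean was 0.311 and 0.601 times that in WT, with veh and with BRICHOS, for oligodendrocytes, 0.643 and 0.175 times for choroid plexus, 0.345 and 0.283 times for neurons, 0.695 and 0.382 times for mural cells, 0.801 and 0.652 times for endothelial cells and 0.486 and 0.517 times for lymphocytes. Of 7 oligodendrocyte markers 2 passed as lower with veh and 0 with BRICHOS, and of 6 choroid plexus markers 0 and 6. Of 7 neuronal markers 4 and 5 passed as lower, and of 7 mural markers 2 and 7. Of 7 endothelial markers 6 and 6 did, and of 4 tested lymphocyte markers 1 and 4. With veh the choroid plexus sums overlapped, at 861 to 3949 CPM in WT and 642 to 1975 CPM in AppNL-G-F mice. With BRICHOS the oligodendrocyte sums did, at 4154 to 15590 and 4497 to 6169 CPM. The part of these cells in the results was not tested. *App* itself was listed at 593 to 929 CPM in WT and 495 to 653 CPM in AppNL-G-F libraries, which does not check the strain, because the knock-in changes the sequence and not the promoter.

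Promoter sequences of the 3 genes of the set that rose most between the strains are shown with that of *Il1a*, which lies 54.6 kb from *Il1b* on the same strand and did not pass the test in the same comparison. Each is the 250 bases before the transcript start furthest upstream, taken from RefSeq for GRCm38.p6 and written 5′ to 3′ on the gene's own strand, and capitals mark matches to a searched motif on either strand. The motifs were the TATA box (TATAAA), the AP-1 site (TGANTCA), the core of the PU.1 site (GAGGAA), the factor that defines myeloid cells, and the NF-kappaB site.
Il1b, chr2:129371140-129371389, minus strand: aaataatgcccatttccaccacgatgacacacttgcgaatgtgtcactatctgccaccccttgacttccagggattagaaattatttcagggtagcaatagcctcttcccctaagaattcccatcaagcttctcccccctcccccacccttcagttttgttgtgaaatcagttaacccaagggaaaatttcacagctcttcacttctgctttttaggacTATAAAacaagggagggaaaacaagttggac
Il1a, chr2:129309973-129310222, minus strand: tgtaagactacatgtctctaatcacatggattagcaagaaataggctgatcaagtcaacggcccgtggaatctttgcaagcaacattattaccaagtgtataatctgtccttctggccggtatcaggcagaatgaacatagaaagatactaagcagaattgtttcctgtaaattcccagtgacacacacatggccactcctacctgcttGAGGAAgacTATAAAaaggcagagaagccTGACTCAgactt
Il1rn, chr2:24336610-24336859, plus strand: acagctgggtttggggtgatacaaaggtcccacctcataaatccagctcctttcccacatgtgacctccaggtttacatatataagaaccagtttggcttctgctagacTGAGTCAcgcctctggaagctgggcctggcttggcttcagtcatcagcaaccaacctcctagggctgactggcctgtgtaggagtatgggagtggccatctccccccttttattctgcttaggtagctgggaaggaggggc
Nlrp3, chr11:59541319-59541568, plus strand: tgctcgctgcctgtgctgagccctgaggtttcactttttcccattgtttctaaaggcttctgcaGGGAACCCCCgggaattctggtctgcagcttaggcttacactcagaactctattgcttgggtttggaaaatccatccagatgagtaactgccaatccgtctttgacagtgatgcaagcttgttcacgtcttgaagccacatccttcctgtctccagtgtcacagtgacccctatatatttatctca
*Il1b* and *Il1a* both held a TATA box, 26 and 27 bases before the start, a motif found in 12.4% of the 32851 mouse promoter windows of this length. *Il1a* also held an AP-1 site 6 bases and a PU.1 core 36 bases before its start, and *Il1rn* held an AP-1 site. The shares of all windows were 6.75% for AP-1, 23.3% for the PU.1 core and 7.25% for the NF-kappaB site, of which *Nlrp3* held 1 match 177 bases before its start. The start of *Nlrp3* further downstream had 3 PU.1 cores in its window, the 2 other *Il1rn* starts had no match, and both listed starts of *Casp4* had matches to the NF-kappaB site. *Pycard* and *Casp1* each held a PU.1 core, and *Il18* held a TATA box on the other strand. RefSeq windows were found for 8 of the 9 genes, and *Gsdmd* had none. A match describes letters in a window and is not evidence of binding.

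Between the strains, *Il1b* and *Il1rn* were the genes of the set with the highest fold changes, followed by *Nlrp3*, while *Gsdmd* was slightly lower in AppNL-G-F mice. This was measured in veh-treated mice and, with other animals, in BRICHOS-treated mice. Of the 9 genes, 3 rose and 1 fell at an adjusted p-value under 0.05 in veh-treated AppNL-G-F compared with WT mice, by edgeR's quasi-likelihood test. Over all tested genes, 37.0% passed in that comparison, 20.1% as higher and 16.9% as lower, so a count of 4 of 9 was close to the share of all genes. In BRICHOS-treated mice, 5 genes rose and 1 fell, beside 42.5% of all genes, with 20.8% higher and 21.8% lower. The groups did not overlap for 4 and 7 of the 9 genes, beside 50.9% and 51.7% of all tested genes. The median log2 fold change of the set was 0.34 and 0.40, and that of all genes was -0.02 and -0.04.

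**Figure D1:**
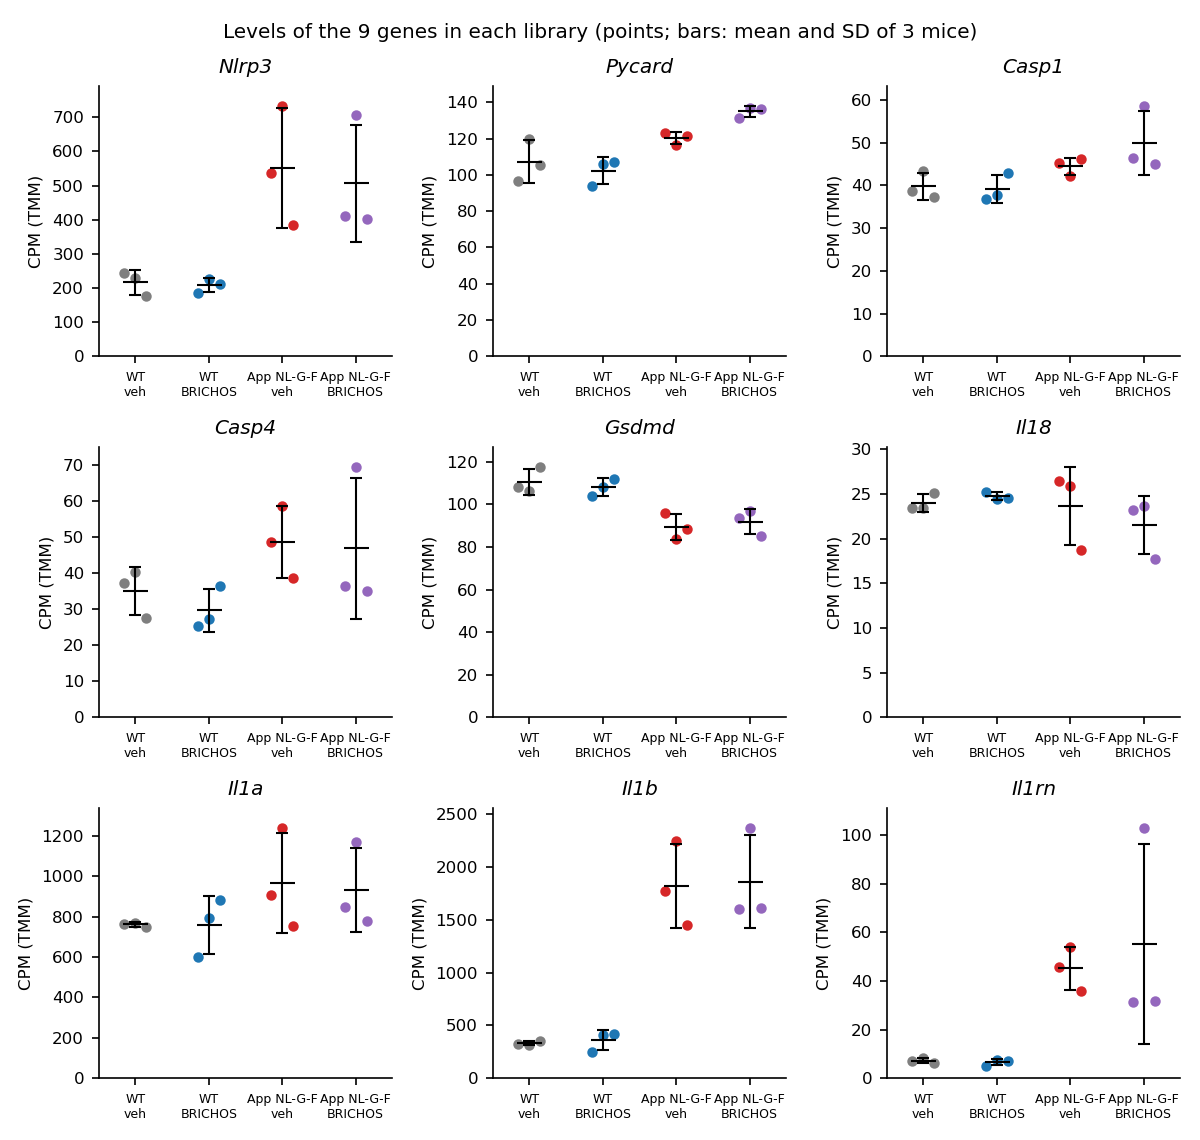
CPM of the 9 genes in each library (vertical axes, linear from 0), by group (horizontal axes), with the 3 mice of a group as points and the mean and SD as bars. *Il1b*, *Il1rn* and *Nlrp3* lie higher in all 6 AppNL-G-F libraries than in any WT library, and *Gsdmd* lies lower.

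*Nlrp3* (ENSMUSG00000032691, GRCm38 chr11:59541568-59566956, plus strand) encodes the sensor. It was at 244, 230.4 and 176 CPM in the veh-treated WT mice and at 185, 227 and 212 CPM in the BRICHOS-treated WT mice. The veh-treated AppNL-G-F mice had 536, 733 and 384 CPM, and the BRICHOS-treated ones had 412, 705 and 402 CPM. Every AppNL-G-F library was above every WT library, and 1 library in each AppNL-G-F group stood well above the others. The log2 fold change between the strains was 1.35 (SE 0.254, adjusted p = 0.00158, edgeR) with veh and 1.28 (SE 0.253, adjusted p = 0.00182) with BRICHOS, or 2.54-fold and 2.43-fold.

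*Pycard* (ENSMUSG00000030793, chr7:127989708-127993867, minus strand) encodes the adaptor ASC. Its levels were 96.6, 119.9 and 106 CPM in veh-treated WT, 93.7, 106 and 107 CPM in BRICHOS-treated WT, 123, 116 and 122 CPM in veh-treated AppNL-G-F and 132, 137 and 136 CPM in BRICHOS-treated AppNL-G-F mice. The veh-treated groups overlapped, through 1 WT library, and the BRICHOS-treated groups did not. The log2 fold change between the strains was 0.16 (SE 0.0759, adjusted p = 0.111) with veh and 0.40 (SE 0.0758, adjusted p = 0.00136) with BRICHOS. Without veh-treated WT replicate 2, the library behind the overlap, the veh comparison gave 0.25 (adjusted p = 0.0191). The second change was 1.32-fold. An antisense gene, *Gm45205*, shares 485 exonic bases with *Pycard* and its reads could not be separated here, since the strand setting of the counting is not given in the sources used here.

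*Casp1* (ENSMUSG00000025888, chr9:5298517-5307265, plus strand) encodes the protease of the platform and *Casp4* (ENSMUSG00000033538, chr9:5308828-5336783, plus strand), its neighbour at a distance of 1.6 kb, encodes the sensor protease for lipopolysaccharide. *Casp1* was at 38.7, 43.3 and 37.3 CPM in veh-treated WT, 36.7, 37.7 and 42.8 CPM in BRICHOS-treated WT, 45.1, 42.2 and 46.1 CPM in veh-treated AppNL-G-F and 46.3, 58.5 and 44.9 CPM in BRICHOS-treated AppNL-G-F mice. It overlapped between the strains with veh (log2 fold change 0.16, SE 0.105, adjusted p = 0.254) and rose by 0.35 with BRICHOS (SE 0.104, adjusted p = 0.0176). That call was lost without BRICHOS-treated WT replicate 1 (adjusted p = 0.0582) or 2 (adjusted p = 0.0588) and without BRICHOS-treated AppNL-G-F replicate 2 (0.23, adjusted p = 0.0542). *Casp4* had 37.2, 40.2 and 27.6 CPM in veh-treated WT, 25.2, 27.2 and 36.5 CPM in BRICHOS-treated WT, 48.6, 58.5 and 38.7 CPM in veh-treated AppNL-G-F and 36.3, 69.4 and 34.9 CPM in BRICHOS-treated AppNL-G-F mice. Its groups overlapped in both comparisons, and its log2 fold changes of 0.47 (SE 0.264, adjusted p = 0.185) and 0.66 (SE 0.265, adjusted p = 0.0642) did not pass. DESeq2's Wald test on the compared groups alone passed both, with adjusted p-values of 0.0243 and 0.0315.

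*Gsdmd* (ENSMUSG00000022575, chr15:75862327-75867408, plus strand), which encodes the membrane pore cut by these proteases, went the other way. It was at 108, 106 and 118 CPM in veh-treated WT, 104, 108 and 112 CPM in BRICHOS-treated WT, 96.1, 83.9 and 88.2 CPM in veh-treated AppNL-G-F and 93.7, 96.7 and 85.2 CPM in BRICHOS-treated AppNL-G-F mice. The lowest WT library was above the highest AppNL-G-F library under each treatment. The log2 fold change was -0.31 (SE 0.0673, adjusted p = 0.00409) with veh and -0.23 (SE 0.0671, adjusted p = 0.0152) with BRICHOS, and the levels were 0.809 and 0.85 times those in WT. The second call was lost without BRICHOS-treated WT replicate 3 (adjusted p = 0.0545), without BRICHOS-treated AppNL-G-F replicate 3 (adjusted p = 0.0665) and with DESeq2 on the compared groups alone (adjusted p = 0.0932), whereas the first passed in all 12 fits with a library left out.

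*Il1b* (ENSMUSG00000027398, chr2:129364570-129371139, minus strand), the precursor of the cytokine that inflammasomes release, was at 327, 314 and 354 CPM in veh-treated WT and at 252, 409.9 and 420.4 CPM in BRICHOS-treated WT mice. It reached 1768, 2243 and 1448 CPM in veh-treated AppNL-G-F and 1597, 2366 and 1611 CPM in BRICHOS-treated AppNL-G-F mice. The highest WT library was far below the lowest AppNL-G-F library. The log2 fold change was 2.46 (SE 0.226, adjusted p = 7.05e-06) with veh and 2.36 (SE 0.225, adjusted p = 8.69e-06) with BRICHOS, or 5.49-fold and 5.15-fold. An antisense gene, *Il1bos*, shares 25 exonic bases with it.

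*Il1a* (ENSMUSG00000027399, chr2:129299610-129309972, minus strand) encodes the other agonist of the receptor, whose precursor is active without the cut. Its levels were 765, 770.1 and 749 CPM in veh-treated WT, 599, 795 and 881 CPM in BRICHOS-treated WT, 906, 1237 and 751 CPM in veh-treated AppNL-G-F and 847, 1169 and 776 CPM in BRICHOS-treated AppNL-G-F mice. Each AppNL-G-F group overlapped with its WT group. The log2 fold changes of 0.34 (SE 0.196, 95% interval -0.09 to 0.77, adjusted p = 0.196) and 0.30 (SE 0.196, -0.13 to 0.73, adjusted p = 0.25) did not pass. The upper ends of both intervals lie under the lower ends for *Il1b*, at 1.96 and 1.87. With DESeq2 on the compared groups alone the first gave an adjusted p of 0.0491. *Gm14023*, on the other strand, shares 222 exonic bases with *Il1a*.

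*Il18* (ENSMUSG00000039217, chr9:50554827-50581840, plus strand), a cytokine of the same family that is made in an inactive form and cut by caspase-1, was at 23.4, 23.4 and 25.1 CPM in veh-treated WT, 25.3, 24.4 and 24.6 CPM in BRICHOS-treated WT, 26.4, 25.9 and 18.7 CPM in veh-treated AppNL-G-F and 23.2, 23.7 and 17.8 CPM in BRICHOS-treated AppNL-G-F mice. Replicate 3 was the low one in both AppNL-G-F groups. The log2 fold change was -0.02 (SE 0.134, 95% interval -0.31 to 0.28, adjusted p = 0.933) with veh. With BRICHOS it was -0.20 (SE 0.134, -0.49 to 0.09, adjusted p = 0.257), without overlap of the groups. A change of the size of that of *Il1b* lies outside both intervals.

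*Il1rn* (ENSMUSG00000026981, chr2:24336853-24351494, plus strand), which encodes the receptor antagonist, was at 7.12, 8.3 and 6.18 CPM in veh-treated WT and at 5.17, 7.43 and 7.1 CPM in BRICHOS-treated WT mice. The veh-treated AppNL-G-F mice had 45.8, 53.9 and 35.9 CPM, and the BRICHOS-treated ones had 31.3, 103 and 31.9 CPM. The lowest AppNL-G-F library was well above the highest WT library, and 1 BRICHOS-treated AppNL-G-F library was far above the others of its group. The log2 fold change was 2.64 (SE 0.429, adjusted p = 0.00056) with veh, a 6.25-fold difference. With BRICHOS it was 3.07 (SE 0.431, adjusted p = 0.000168), and 2.27 without the high library, replicate 2, so the size of the second value depends on 1 mouse. *Il1rn* and *Il1b* therefore both rose, the antagonist from a low level and the agonist from a high one.

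**Figure D2:**
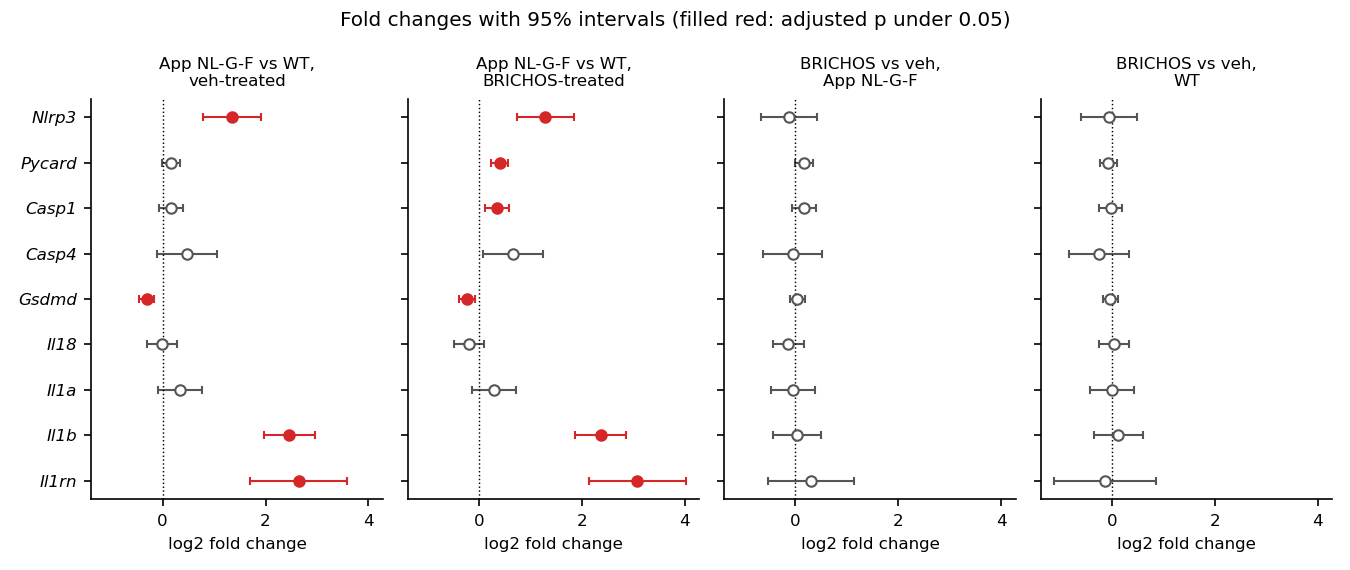
Log2 fold changes of the 9 genes (horizontal axes) with 95% intervals from the edgeR fit, in 4 comparisons of 3 against 3 mice. Filled red points passed an adjusted p-value of 0.05. The strain differences of *Il1b* lie at 2.46 and 2.36, and every interval of a treatment effect includes 0.

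A further contrast tested whether the strain difference depended on the treatment. None of the 9 genes passed with edgeR or with DESeq2 on all libraries, beside 0.00648% of all tested genes with edgeR, and 1 of 9 was under an unadjusted p of 0.05, beside 14.8% of all tested genes. That gene was *Pycard*, whose strain difference was larger with BRICHOS by 0.24 on the log2 scale (SE 0.107, adjusted p = 0.336, edgeR). For *Il1b* the difference of the strain effects was -0.09 (95% interval -0.76 to 0.57) and for *Nlrp3* it was -0.06 (-0.84 to 0.71). For *Il1rn* it was 0.43 (-0.86 to 1.72), and -0.38 without BRICHOS-treated AppNL-G-F replicate 2. The genes that passed between the strains with BRICHOS but not with veh, *Pycard* and *Casp1*, were therefore not shown to differ between the treatments.

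The question of the treatment itself, whether rh Bri2 BRICHOS R221E changed these genes, was compared within each strain. None of the 9 genes passed in AppNL-G-F mice, beside 0.00648% of all tested genes, and none in WT mice, beside 0% of all tested genes, by edgeR. None was under an unadjusted p of 0.05 in either strain, beside 10.8% and 11.4% of all tested genes, and DESeq2 with all libraries called 0 of 9 in both strains. The BRICHOS-treated and the veh-treated libraries of AppNL-G-F mice did not overlap for 1 of the 9 genes, *Pycard*, beside 13.5% of all tested genes, and in WT mice for 0 of 9, beside 17.5%. *Pycard* was higher in the treated AppNL-G-F mice by 0.17 on the log2 scale (SE 0.0757, 95% interval -0.00059 to 0.33, adjusted p = 0.462, edgeR).

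The 95% intervals give the range of effect sizes that these values did not exclude. In AppNL-G-F mice the treatment effect on *Il1b* was 0.03 (95% interval -0.44 to 0.50), an interval that holds no fall of more than 0.44. For *Nlrp3* it was -0.12 (-0.67 to 0.42) and for *Il1a* -0.05 (-0.48 to 0.38). For *Gsdmd* it was 0.04 (-0.11 to 0.19) and for *Casp1* 0.17 (-0.06 to 0.40), the narrowest intervals beside that of *Pycard*. The effect on *Il1rn* was 0.29 (-0.54 to 1.13), and -0.51 without BRICHOS-treated AppNL-G-F replicate 2, so that neither its size nor its direction was settled. *Casp4* gave -0.05 (-0.63 to 0.52) and *Il18* -0.14 (-0.43 to 0.16). In WT mice the effects lay between -0.24 for *Casp4* and 0.12 for *Il1b*.

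The mice of a group differed from each other in several of these genes at once. In BRICHOS-treated AppNL-G-F mice, replicate 2 was the highest of the 3 for all 9 genes. In veh-treated AppNL-G-F mice, replicate 2 was highest for 5 genes, *Nlrp3*, *Casp4*, *Il1a*, *Il1b* and *Il1rn*, and replicate 3 was lowest for the same genes and *Il18*. In BRICHOS-treated WT mice, replicate 1 was the lowest for 8 of the 9 genes. In the AppNL-G-F groups the coefficient of variation over 3 mice was 31.8% and 34.0% for *Nlrp3* and 22.0% and 23.7% for *Il1b*, compared with 2.91% and 2.23% for *Pycard*. Of the 9 genes, *Il1rn* in BRICHOS-treated AppNL-G-F mice had the highest one, at 74.4%.

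Levels of different genes were compared per kb of exon. The exon length takes in every annotated transcript, with 5535 bases for *Il1rn*, and a gene whose used transcript is shorter has a level per kb that is too low. *Pycard* is left out of the order, because every length tried gave 3800 bases, mostly from a single long last exon whose use was not checked. *Il1a* was the highest of the set in WT mice, at 386 ± 5.56 CPM per kb with veh and 384 ± 73.1 CPM per kb with BRICHOS (SD, n = 3), ahead of *Il1b* at 174 ± 10.8 and 189 ± 49.5 CPM per kb. In AppNL-G-F mice *Il1b* came first, at 954 ± 209.6 and 974 ± 230.7 CPM per kb, and *Il1a* was second, at 489 ± 126 and 472 ± 106 CPM per kb. The ratio of *Il1b* to *Il1a* within a library was 0.421 to 0.489 in veh-treated and 0.435 to 0.534 in BRICHOS-treated WT mice. It was 1.88 to 2.02 in veh-treated and 1.95 to 2.15 in BRICHOS-treated AppNL-G-F mice. In 3 of the groups the ratio varied less between mice than either gene did, with coefficients of variation of 3.92% to 10.1%, and in veh-treated WT mice it varied more, at 7.7% beside 1.44% for *Il1a* and 6.22% for *Il1b*. In every library of a strain the same gene of the pair was the higher one. *Nlrp3* came next in all 4 groups, at 51.3 to 136 CPM per kb, followed by *Gsdmd* at 37.6 to 46.5 CPM per kb. In WT mice these neighbours in the order, 53.4 ± 8.89 and 46.5 ± 2.55 CPM per kb with veh, did not differ beyond their spread. *Casp1* and *Il18* lay between 20.9 and 33.3 CPM per kb. *Il1rn*, at 1.19 to 10.0 CPM per kb, was the lowest by this length. The order of the lower genes depends on the length used. With the longest transcript *Gsdmd* was above *Nlrp3* in WT mice. The shortest coding transcript was tried after the values were seen. With it, *Il1rn* came right after *Il1b* and *Il1a* in the AppNL-G-F groups, while *Il1a* and *Il1b* kept their places. That place of *Il1rn* rests on a length of 321 bases, beside 2554 for its longest transcript, and the use of the short one was not checked.

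**Figure D3:**
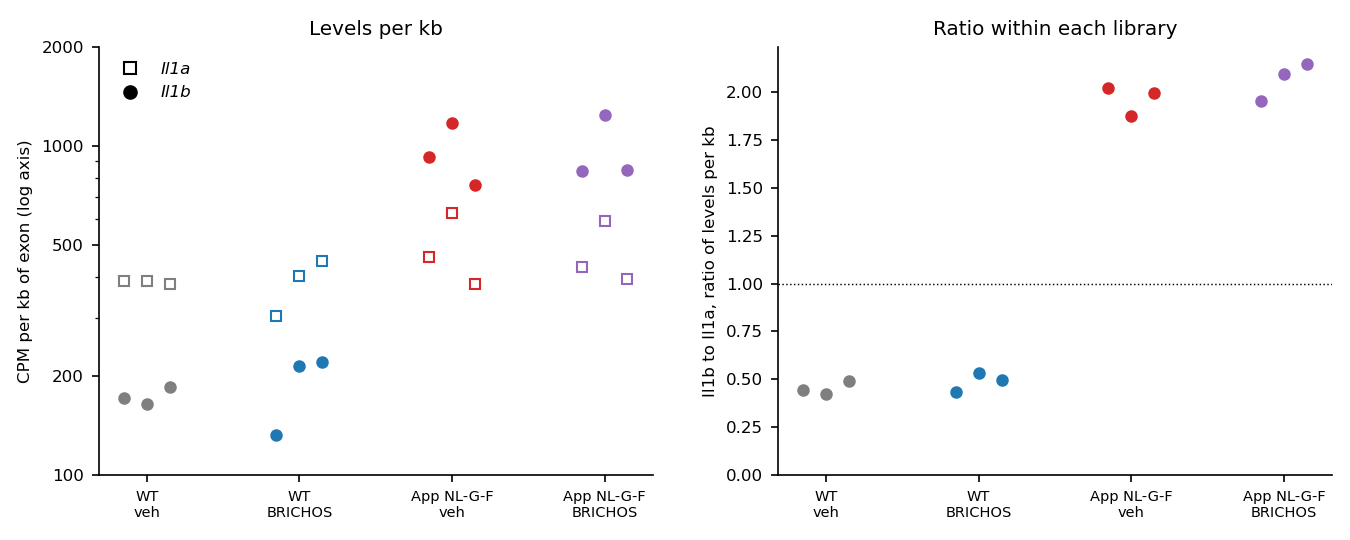
Left, CPM per kb of exon of *Il1a* (open squares) and *Il1b* (filled circles) in each library on a log axis, and right, the ratio of *Il1b* to *Il1a* within each library on a linear axis from 0, by group. The ratio lies between 0.421 and 0.534 in the 6 WT libraries and between 1.88 and 2.15 in the 6 AppNL-G-F libraries.

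Another 46 genes act around the set, as other sensors, regulators, proteases, ligands, receptors, decoys and receptor signalling, and 40 of them were tested. Between the veh-treated strains 6 were higher and 9 were lower in AppNL-G-F mice, with a median log2 fold change of -0.14, and this 15 of 40 was close to the 37.0% of all tested genes. Between the BRICHOS-treated strains 7 were higher and 14 were lower, with a median of -0.11, beside 42.5% of all tested genes. The treatment effect in either strain and the difference of the treatment effects passed for 0 of the 40 with edgeR, and 2 in AppNL-G-F mice, 6 in WT mice and 3 in the difference were under an unadjusted p of 0.05, beside 10.8%, 11.4% and 14.8% of all tested genes. Of the 8 other sensors tested, 3 passed as lower and 1 as higher with veh, beside 16.9% and 20.1% of all tested genes. With BRICHOS these were 4 and 1, beside 21.8% and 20.8%. *Nlrp1b* fell from 58.1 to 62.7 CPM in veh-treated WT to 28.0 to 31.0 CPM in veh-treated AppNL-G-F mice (log2 fold change -1.04, SE 0.0993, adjusted p = 9.12e-06, edgeR). Its paralog *Nlrp1a* fell by 0.94 on the log2 scale (SE 0.104, adjusted p = 3.12e-05, edgeR). Reads of this pair may be shared, since the 2 genes are close copies. *Naip2*, which senses a part of bacterial secretion systems, rose by 0.25 (SE 0.0429, adjusted p = 0.000907). *Nlrc4*, the partner of the NAIP proteins, fell by 0.97 (SE 0.226, adjusted p = 0.00575) at a level of 0.906 to 4.73 CPM and is given here although it was the fourth sensor by p-value.

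Among the regulators, *Txnip*, a thioredoxin-binding protein known to bind NLRP3, had 867 to 1035 CPM in veh-treated WT and 378 to 413 CPM in veh-treated AppNL-G-F mice, without overlap (log2 fold change -1.28, SE 0.102, adjusted p = 2.13e-06). An antisense gene, *Gm15441*, shares 606 exonic bases with *Txnip*, and its reads could not be separated here. *P2rx7*, the ATP-gated channel whose opening triggers NLRP3, fell by 0.48 (SE 0.0771, adjusted p = 0.000486), and *Panx1*, an ATP-releasing channel, rose by 0.67 (SE 0.194, adjusted p = 0.0176). The call of *Panx1* was lost without veh-treated WT replicate 1 (adjusted p = 0.071) or veh-treated AppNL-G-F replicate 3 (adjusted p = 0.0654). *Casp8*, a protease of cell death that can also cut pro-IL-1β, fell by 0.67 (SE 0.0514, adjusted p = 1.58e-06), from 112 to 113 CPM down to 68.4 to 72.7 CPM.

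On the receiving side, *Il1r1*, the signalling receptor of IL-1, was at 4.92 to 9.39 CPM in veh-treated WT and 18.8 to 21.7 CPM in veh-treated AppNL-G-F mice (log2 fold change 1.63, SE 0.213, adjusted p = 0.00011), and *Il1rl2*, the receptor of IL-36, fell by 0.18 (SE 0.0618, adjusted p = 0.0407). Among the decoys and inhibitors, *Il18bp*, which binds and blocks IL-18, rose from 3.74 to 4.32 CPM to 9.19 to 11.8 CPM (1.40, SE 0.131, adjusted p = 7.94e-06), and *Irak3*, an inhibitor of receptor signalling, rose by 0.37 (SE 0.122, adjusted p = 0.033). In the signalling chain, *Tab2* fell by 0.55 (SE 0.048, adjusted p = 4.56e-06), *Map3k7*, which encodes the kinase TAK1, fell by 0.19 (SE 0.0576, adjusted p = 0.0223), and the kinase *Irak2* rose by 0.38 (SE 0.054, adjusted p = 0.000195). Genes on the other strand share 220 exonic bases with *Irak3*, 196 with *Irak2* and 80 with *Il18bp*. The 14 genes named here by their p-values, except *Map3k7*, passed in the same direction between the BRICHOS-treated strains, where *Map3k7* gave -0.13 (adjusted p = 0.0889). The small changes of *Il1rl2*, *Irak3* and *Map3k7* lost their calls under several alternatives.

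**Figure D4:**
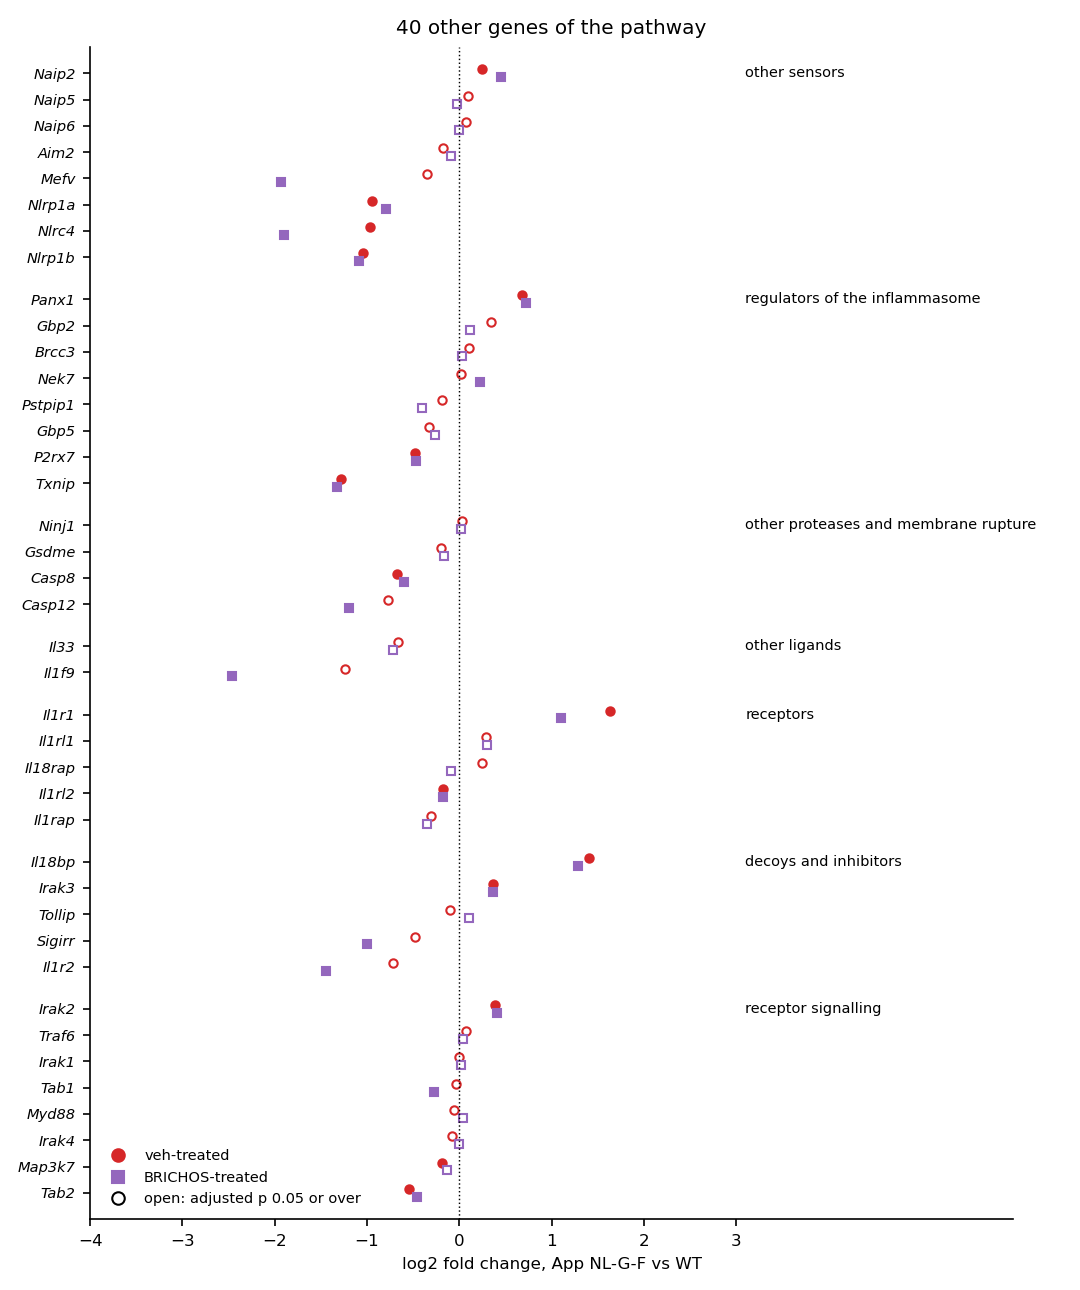
Log2 fold changes between the strains (horizontal axis) of the 40 other tested genes, grouped by role, with veh as circles and with BRICHOS as squares. Filled symbols passed an adjusted p-value of 0.05, and *Il1r1* and *Il18bp* stand furthest to the right, at 1.63 and 1.40 with veh.

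Several of the 9 genes are also used by other myeloid cells, so markers of those cells were followed in the same libraries. The 9 neutrophil markers summed to 39.6 to 446 CPM in veh-treated WT, 74.2 to 426 CPM in BRICHOS-treated WT, 15.2 to 39.4 CPM in veh-treated AppNL-G-F and 14.1 to 36.8 CPM in BRICHOS-treated AppNL-G-F mice. All 9 passed as lower in veh-treated and 6 of 9 in BRICHOS-treated AppNL-G-F mice, and no neutrophil marker was at 0 in all libraries of a group. The part of these cells in the results was not tested. The sum of the 7 monocyte markers was 0.751 and 0.463 times that in WT, with 3 and 5 of 7 passed as lower and 0 as higher, while *Ly6c2* had log2 fold changes of 0.49 and 0.81 and *Vcan* one of 0.65 with veh that did not pass. The 7 markers of border macrophages summed to 0.482 and 0.36 times the WT value, with 6 of 7 passed as lower in each comparison. The part of both cell types in the results was not tested. Interferon-stimulated genes moved with the strain, at 193 to 223 CPM in veh-treated WT and 288 to 374 CPM in veh-treated AppNL-G-F mice, and 5 of 10 passed as higher, and their part in the results was not tested. The 12 immediate early genes, which respond within minutes and can be induced by warm enzymatic digestion, summed to 16302 to 20094 CPM in veh-treated WT, 16833 to 22413 CPM in BRICHOS-treated WT, 17941 to 23979 CPM in veh-treated AppNL-G-F and 20614 to 23357 CPM in BRICHOS-treated AppNL-G-F mice. Of these, 7 passed as higher and 1 as lower between the veh-treated strains, and 3 and 1 between the BRICHOS-treated strains. The sums overlapped between the strains, and their part in the change of *Il1b* was not tested. The 8 astrocyte markers all passed as higher in veh-treated AppNL-G-F mice, at 1418 to 4553 CPM against 434 to 613 CPM in WT, and at 661 to 1910 CPM against 435 to 803 CPM with BRICHOS, where 1 of 8 passed. BRICHOS-treated AppNL-G-F replicate 2 had the lowest astrocyte sum of its strain, 661 CPM, and the highest *Il1b* and *Il1rn* of all libraries, 2366 and 103 CPM. The veh-treated AppNL-G-F group went the other way. There, replicate 3 had the lowest astrocyte sum, 1418 CPM, and the lowest *Il1b* and *Il1rn*, 1448 and 35.9 CPM. The part of astrocytes in the results was not tested.

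**Figure D5:**
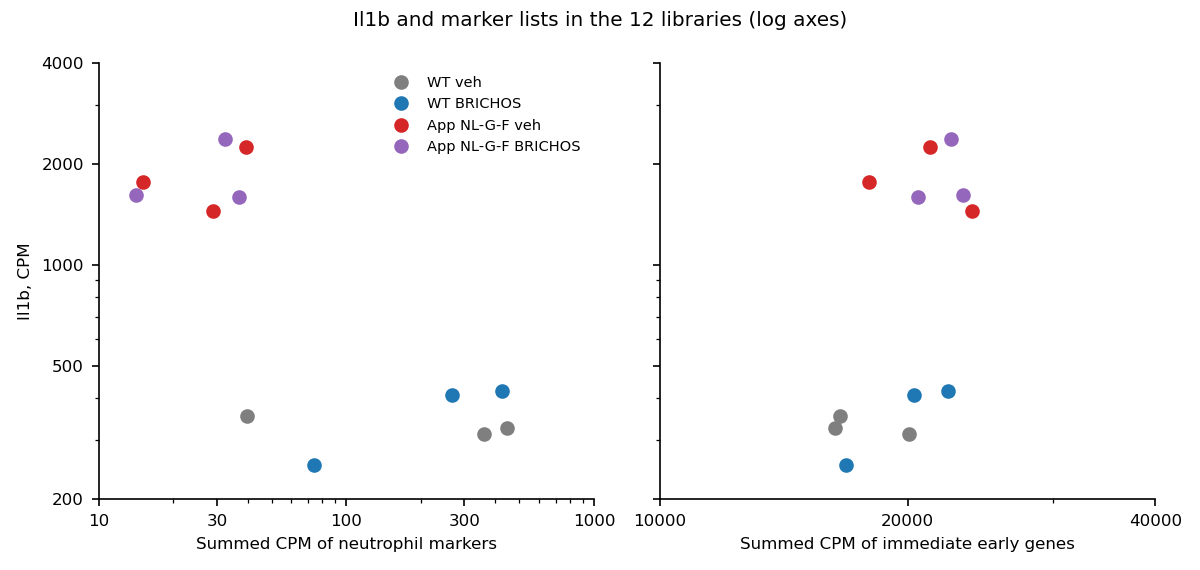
*Il1b* in CPM (vertical axis) against the summed CPM of 9 neutrophil markers (left) and of 12 immediate early genes (right) in the 12 libraries, on log axes, with groups by colour. The 6 AppNL-G-F libraries have 1448 to 2366 CPM of *Il1b* at 14.1 to 39.4 CPM of neutrophil markers.

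For each member, the genes with the most similar levels were taken as those with the highest Pearson correlation of log2 CPM over the 12 libraries, which share strain, treatment and library. They were picked as the highest among all tested genes outside the set. The values within a strain come from the same libraries, so high values there follow in part from this choice. For *Il1b* these were *Slc2a6*, a hexose transporter, and *Ptgs2*, the inducible cyclooxygenase, with r = 0.997 and 0.996, and with r = 0.946 and 0.882 within the 6 AppNL-G-F and 0.905 and 0.945 within the 6 WT libraries. For *Il1rn*, *Slc15a3* had r = 0.993, with r = 0.963 within the AppNL-G-F and 0.596 within the WT libraries. For *Nlrp3* the closest were *Srxn1*, a sulfiredoxin, and *Paf1*, with r = 0.984 and 0.983, and with r = 0.982 and 0.896 within the AppNL-G-F and 0.709 and 0.961 within the WT libraries. *Casp4* was closest to *Nfkbib*, an inhibitor of NF-kappaB, and *Etf1*, with r = 0.973 and 0.965, and with 0.984 and 0.958 within the AppNL-G-F and 0.956 and 0.928 within the WT libraries. *Pycard* had r = 0.959 with *Nsun2* (0.968 within the AppNL-G-F and 0.837 within the WT libraries). *Casp1* was closest to *Zfp622* and *2810025M15Rik*, with r = 0.965 and 0.955, and with 0.94 and 0.948 within the AppNL-G-F and 0.908 and 0.876 within the WT libraries. *Gsdmd* was closest to *8030442B05Rik* and *Cyb561a3*, with r = 0.965 and 0.957, and with 0.889 and 0.778 within the AppNL-G-F and 0.703 and 0.799 within the WT libraries. *Il1a* was closest to the histone demethylase gene *Kdm6b* and to *Ppp1r18*, with r = 0.921 and 0.913, and with 0.964 and 0.957 within the AppNL-G-F and 0.632 and 0.918 within the WT libraries. For *Il18* the closest were *Sh3d21* and the transferrin receptor gene *Tfrc*, with r = 0.944 and 0.898, and with 0.987 and 0.946 within the AppNL-G-F and 0.364 and -0.038 within the WT libraries.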

How the data were processed

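Raw counts per gene were analysed for 12 libraries, 3 in each of 4 groups, assigned by the labels. The authors trimmed reads with Cutadapt, aligned them to GRCm38 with STAR, counted them with featureCounts and deposited counts without normalization. The counting strand and the handling of shared reads are not given in the sources used here. Symbols, positions and exon lengths came from GENCODE M21, which matched 55227 of 55487 genes.

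Genes were kept by filterByExpr (minimum count 10) in edgeR 4.0.16 (R 4.3.3). After TMM scaling, 1 quasi-likelihood model over the 12 libraries gave Benjamini-Hochberg adjusted p-values over all 15425 tested genes (threshold 0.05) and 95% intervals. Log2 CPM used a prior count of 2. The Wald test of DESeq2, the study's own test, was run in version 1.42.0 as an alternative, with adjusted p-values. The study used an earlier version and a p-value under 0.05, with a cutoff on the fold change in its methods. Its numbers of genes are therefore not those given here. Scripts were tested on simulated data. The p-values set a difference between groups against the spread between mice within the groups, estimated from the 12 libraries together.

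The members and lists were chosen with earlier results of these data known. Also named were, in each pathway list, up to 3 genes of lowest p among those called between the veh-treated strains and any called for the treatment, and the 2 genes most alike to each member. For *Il1rn* and *Pycard*, 1 of these is not reported here. *Nlrc4*, *Ly6c2* and *Vcan* were named after their values were seen. Other size factors, tests, filters, libraries, a replicate block and transcript lengths were tried, and the shortest transcript and the alternatives for pathway genes were added after seeing the data.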

Additional observations from a re-analysis of the deposited data

How the results depend on the processing

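The calls of *Il1b*, *Il1rn* and *Nlrp3* between the strains held in both comparisons under every alternative fit and with each library left out. The number of the 9 genes called was 4 to 6 between the veh-treated strains and 5 to 7 between the BRICHOS-treated strains. Of 252 fold changes of members recomputed with another test, filter or scaling, 245 kept their direction and their side of the threshold, 5 gained a call, 2 lost one and 0 reversed. In the AppNL-G-F mice, 1 gene of all those tested was called for the treatment, and 124 with DESeq2 on all libraries, 71 with DESeq2 on the compared groups, 25 without the filter, 0 with edgeR on the compared groups, 1673 at unadjusted p-values and 0 to 162 with a library left out, the highest without veh-treated AppNL-G-F replicate 3. In WT mice 0 genes were called, and 85, 134 and 12 with the first 3 of these alternatives, 1755 at unadjusted p-values and 0 to 5 with a library left out. For the difference of the treatment effects 1 gene was called, and 249 with DESeq2 on all libraries, 107 without the filter, 2279 at unadjusted p-values, of which 1 was a member, and 0 to 88 with a library left out. By adjusted p-values, the members stayed at 0 calls in the treatment comparisons in all of these fits. The cause of these differences was not tested.

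Libraries of equal number were not treated as paired in the main fit. Their deviations from the group means had correlations of 0.0564 to 0.174 between the veh-treated strains. In the other comparisons these were -0.0148 to 0.227. Libraries of unequal number were not compared in this way, so the values do not decide whether equal numbers mark pairs. A replicate block gave 0 genes for the treatment in AppNL-G-F mice, and 5991 and 6822 genes between the strains in place of 5710 and 6560.

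The ratio of *Il1b* to *Il1a* per kb, 0.451, 0.488, 1.96 and 2.07 as the means of veh- and BRICHOS-treated WT and of veh- and BRICHOS-treated AppNL-G-F mice, was 0.634, 0.686, 2.76 and 2.90 with the length of the longest or of the shortest coding transcript.

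Small treatment effects changed sign when a library was left out, none of them called. In AppNL-G-F mice they ranged from -0.44 to 0.12 for *Casp4*, -0.0046 to 0.11 for *Gsdmd*, -0.24 to 0.17 for *Il1a*, -0.17 to 0.21 for *Il1b*, -0.51 to 0.58 for *Il1rn* and -0.43 to 0.14 for *Nlrp3* on the log2 scale. In WT mice they ranged from -0.10 to 0.037 for *Casp1*, -0.066 to 0.0087 for *Gsdmd*, -0.13 to 0.13 for *Il1a*, -0.0020 to 0.32 for *Il1b*, -0.24 to 0.0025 for *Il1rn*, -0.19 to 0.030 for *Nlrp3* and -0.15 to 0.013 for *Pycard*. The difference of the effects ranged from -0.20 to 0.37 for *Casp4*, -0.24 to 0.18 for *Il1a*, -0.30 to 0.089 for *Il1b*, -0.38 to 0.72 for *Il1rn* and -0.37 to 0.20 for *Nlrp3*. The strain difference of *Il18* with veh ranged from -0.10 to 0.13. With 3 mice in a group, the 95% interval of every treatment effect on a member within a strain included 0.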
